A study of Mus musculus with 14 samples.

Results

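The genes of the mitochondrial ribosomal proteins were taken as the rows whose symbol starts with Mrpl or Mrps followed by a digit. The rule found 78 of the 20626 genes in the 4 expression tables, and all 78 are autosomal. Of these, 51 encode proteins of the large subunit of the mitochondrial ribosome and 26 proteins of the small subunit. The remaining gene, Mrps36, carries a ribosomal symbol, but its protein is known as a subunit of the 2-oxoglutarate dehydrogenase complex. Within the ribosomal 77, 46 proteins have a counterpart in the bacterial ribosome and 31 are specific to mitochondria. Mrps18a and Mrps30 were counted with the large subunit, where their proteins sit.

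Mitochondria carry their own ribosomes, which translate the few mRNAs of the mitochondrial genome, all of them for subunits of the respiratory chain and the ATP synthase. The ribosomal RNAs of these ribosomes come from the mitochondrial genome, whereas every protein is encoded in the nucleus, made in the cytosol and imported. In the testis, mitochondria change shape and metabolism during meiosis and spermiogenesis and end as the sheath around the sperm midpiece.

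The series followed the loss of Setd2, the methyltransferase that places H3K36me3 on transcribed gene bodies, in the testis of adult C57BL/6J mice. Spermatocytes at the pachytene and diplotene stages of meiosis (PD) and haploid round spermatids (RS) had been sorted by Hoechst and propidium iodide staining after digestion of the testis. RNA came from wild-type (WT) and Setd2KO cells of each kind, 2 libraries to a group, and there is 1 H3K36me3 peak list for each of the 4 groups. The labels name the mutant Setd2KO with no deleted exons and no Cre driver. They do not say whether the 2 libraries are 2 animals, so that p-values cover library-to-library spread, possibly technical alone. Levels are FPKM, fragments per kilobase of transcript and 1000000 mapped reads, and changes are differences in log2(FPKM + 1), which understate the change of genes with low levels. A change was called when its adjusted p in limma was under 0.05 over the 11452 genes with a mean of 1 FPKM or more in at least 1 group. All 78 members passed that filter.

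Mapped reads per library, in units of 1000000, ran from 50.8 to 84.9. The first PD WT library stood apart with a summed FPKM of 181915, against 219288 to 234791 in the other 7. The Setd2 gene model as a whole was at 21.2 and 19.1 FPKM in wild-type and 21.0 and 21.4 in mutant spermatocytes, and at 5.24 and 5.58 in wild-type and 12.1 and 8.67 in mutant spermatids. Such whole-gene values do not check the deletion of part of a gene. Marker sums described the sort. The 18 spermatid markers summed to 631 to 759 FPKM in wild-type and 594 to 723 in mutant spermatocytes. In spermatids they summed to 6214 to 6546 in wild-type and 2836 to 3184 in mutant cells. The 18 spermatocyte markers summed to 732 to 785, 888 to 940, 371 to 390 and 401 to 412 FPKM in the same order. The spermatid markers changed with the genotype, so their sums do not check the mutant sort. By limma 13 of the 18 rose and 2 fell in PD Setd2KO. In RS Setd2KO 6 fell and 0 rose (0 also at an unadjusted p under 0.05).

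Promoter sequences introduce 4 members with different patterns in the values below: Mrpl24, which fell in both cell types, Mrpl33, which rose in both cell types, Mrps18c, likewise higher in both, and Mrps12, which moved in opposite directions. Each line gives the 250 bases before the RefSeq transcript start (GRCm38.p6), read 5′ to 3′ on the gene's strand, with matches to 5 searched motifs in capitals on either strand. The positions are chr3:87919294-87919543 (plus strand) for Mrpl24, chr5:31613701-31613950 (plus) for Mrpl33, chr5:100798509-100798758 (plus) for Mrps18c and chr7:28741822-28742071 (minus) for Mrps12.
Mrpl24: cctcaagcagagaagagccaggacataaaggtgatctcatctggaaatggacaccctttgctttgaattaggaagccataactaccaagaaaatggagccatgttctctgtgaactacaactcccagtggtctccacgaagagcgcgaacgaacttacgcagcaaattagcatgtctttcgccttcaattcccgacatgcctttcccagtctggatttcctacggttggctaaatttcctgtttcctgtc
Mrpl33: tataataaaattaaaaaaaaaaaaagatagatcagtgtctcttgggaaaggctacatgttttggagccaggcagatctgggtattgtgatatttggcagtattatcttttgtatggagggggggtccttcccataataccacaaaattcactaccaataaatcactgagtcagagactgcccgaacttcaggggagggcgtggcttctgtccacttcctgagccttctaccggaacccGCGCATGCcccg
Mrps18c: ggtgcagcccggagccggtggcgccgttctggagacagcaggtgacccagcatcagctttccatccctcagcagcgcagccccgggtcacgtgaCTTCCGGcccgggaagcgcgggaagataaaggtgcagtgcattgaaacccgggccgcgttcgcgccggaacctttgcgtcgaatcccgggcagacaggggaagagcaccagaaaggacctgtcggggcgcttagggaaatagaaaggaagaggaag
Mrps12: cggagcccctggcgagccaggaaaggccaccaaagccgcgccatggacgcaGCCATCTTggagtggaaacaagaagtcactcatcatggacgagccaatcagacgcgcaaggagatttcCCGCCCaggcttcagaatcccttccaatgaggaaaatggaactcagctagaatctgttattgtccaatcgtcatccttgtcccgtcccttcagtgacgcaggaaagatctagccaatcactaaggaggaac
The Mrpl33 capitals mark an NRF1 motif, those of Mrps18c an ETS motif, and those of Mrps12 a YY1 and an Sp motif, while the Mrpl24 window held none of the 5. NRF1, the ETS factor GABP (also called NRF2) and YY1 are textbook regulators of nuclear genes for mitochondrial proteins. RefSeq had a promoter for 69 of the 78 members. The ETS motif CCGGAAG was in 18 of them (26.1%), against 16.7% of 8602 tested genes with a promoter. The NRF1 motif GCGCATGC was in 8 (11.6%, against 5.37%) and the YY1 motif AAGATGGC in 4 (5.8%, against 2.65%). The Sp motif GGGCGG was in 33 (47.8%, against 59.3%) and TATAAA in 5 (7.25%, against 8.20%). A match is a run of letters and does not show that a factor binds.

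The members covered a wide range of levels. In PD WT the median member was at 11.3 FPKM in the first library and 13.2 in the second, and in RS WT at 7.41 and 6.44. Over all 8 libraries the 5 highest means belonged to Mrpl54, Mrpl20, Mrpl39, Mrpl24 and Mrpl51, all of the large subunit. Mrpl54 was at 50.3 and 77.7 FPKM in WT against 61.2 and 62.7 in Setd2KO spermatocytes, and at 58.6 and 64.4 against 63.1 and 61.9 in spermatids. Mrpl20 was at 46.0 and 61.7 in WT against 69.2 and 65.2 in Setd2KO spermatocytes, and at 62.9 and 59.0 against 56.8 and 61.4 in spermatids. Their ranges overlap each other, so the order of the top pair is not resolved. Mrpl51 was at 31.6 and 42.5, 38.7 and 40.1, 42.2 and 38.1, and 38.8 and 39.1 FPKM in the order PD WT, PD Setd2KO, RS WT, RS Setd2KO, and none of Mrpl54, Mrpl20 and Mrpl51 was called in any comparison. Mrpl24 stood highest of all in both PD WT libraries.

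The 5 lowest means were those of Mrpl17, Mrpl14, Mrpl50, Mrps24 and Mrpl19. Mrpl17 was at 1.48 and 2.12 FPKM in WT against 1.81 and 1.77 in Setd2KO spermatocytes, and at 0.753 and 0.624 against 0.724 and 0.630 in spermatids. Mrpl14 was at 1.08 and 1.95, 2.01 and 2.57, 0.613 and 0.430, and 0.811 and 0.637 FPKM in the same order. These are thin values: Mrpl14 rests on 13 reads in the second RS WT library, the fewest of any member, where the median over members and libraries is 689.5 reads. Mrps24 was at 1.46 and 2.19, 3.06 and 3.18, 0.421 and 0.449, and 0.633 and 0.436 FPKM. In wild-type spermatids each of Mrpl17, Mrpl14, Mrpl50, Mrps24 and Mrpl19 lay under 1 FPKM in both libraries.

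**Figure D1:**
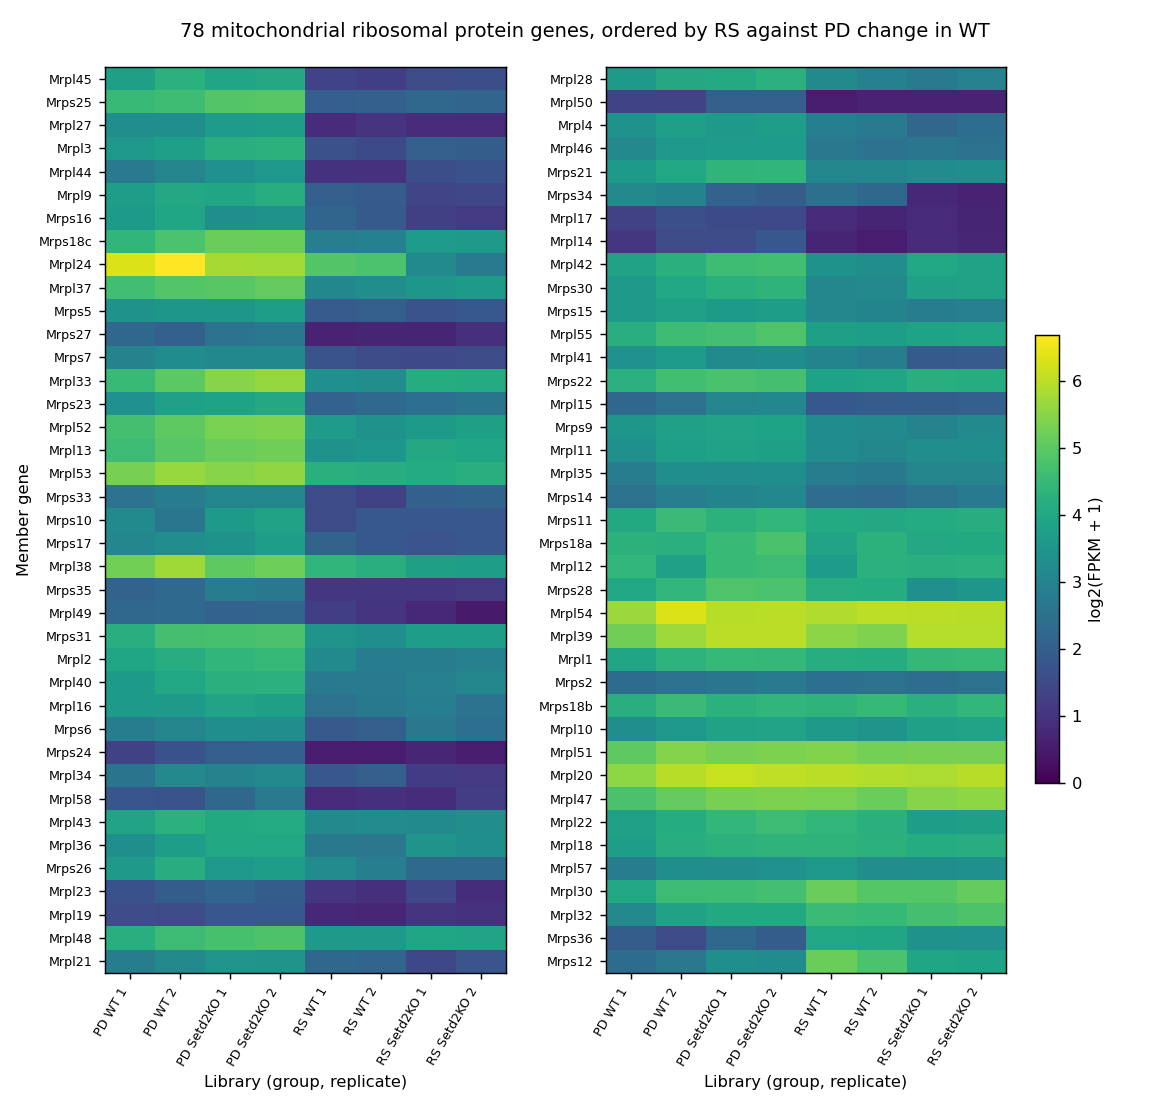
Each row is 1 of the 78 members and each column 1 of the 8 libraries, with colour giving log2(FPKM + 1), and rows ordered by the RS against PD change in WT from the most negative (top left) to the most positive (bottom right). The 4 RS columns are darker than the 4 PD columns for most rows, and Mrps12 and Mrps36 at the bottom right are the reverse.

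From spermatocytes to spermatids in the wild type, most mitochondrial ribosomal protein genes had lower FPKM. This is a level relative to mapped reads, and amounts per cell were not measured. Of the 78 members, 56 were lower in RS WT than in PD WT and 6 higher. Among all genes tested 46.7% were called lower and 36% higher, and 50.6% and 39% had groups that did not overlap (58 and 7 members). Without the second PD WT library 11 members were called higher. The median member changed by −0.78 and the median of all genes by −0.21. Values called "relative" below have the median of all genes in their own comparison subtracted. In 38 members the mean fell by 2-fold or more. As a share of all FPKM the members made up 0.594% and 0.616% in PD WT against 0.369% and 0.353% in RS WT. In bulk samples, fewer cells of a type and less RNA per cell cannot be told apart.

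Both subunits took part. In the large subunit 36 of 51 members fell and 4 rose, with a median of −0.78, and in the small subunit 20 of 26 fell and 1 rose, with a median of −0.98. Among mitochondria-specific proteins 25 of 31 fell and 0 rose (0 also at an unadjusted p under 0.05 in limma), and among those with a bacterial counterpart 31 of 46 fell and 5 rose. The differences between these classes were not tested.

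Mrpl45, which lies at the exit of the peptide tunnel facing the inner membrane, was at 13.0 and 18.5 FPKM in PD WT and at 1.55 and 1.34 in RS WT. It fell by 2.76 on the log2 scale (SE 0.15, relative −2.54, adjusted p = 1.39e-08 by limma). Mrps25, a mitochondria-specific small-subunit protein, was at 21.9 and 23.4 in PD WT and 3.0 and 3.11 in RS WT (log2 change −2.54, SE 0.12, adjusted p = 4.29e-09). Mrpl27, whose bacterial counterpart reaches the peptidyl transferase centre, was at 8.87 and 8.98 against 0.806 and 1.05 FPKM (log2 change −2.37, SE 0.11). In each of these 3 genes both spermatid libraries lay far below both spermatocyte libraries.

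Mrpl3, a core protein of the large subunit, was at 10.8 and 12.6 FPKM in PD WT and 2.13 and 1.82 in RS WT (log2 change −2.09). Mrpl44, a protein with a ribonuclease III fold, was at 5.84 and 7.29 against 0.976 and 0.953 (−1.94), and Mrpl9 at 12.5 and 15.3 against 3.07 and 2.89 (−1.89). Mrps16 was at 11.4 and 14.2 FPKM in PD WT and 3.54 and 2.75 in RS WT (−1.74). Mrps18c was at 20.3 and 26.9 against 6.24 and 6.62 (−1.71), Mrpl24 at 80.1 and 102 against 29.0 and 26.9 (−1.66), and Mrpl37 at 24.5 and 28.7 against 7.74 and 8.65 (−1.58). The adjusted p in limma was at most 2.16e-06 in these 7, and every RS WT library lay below both PD WT libraries.

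Mrps12, a protein of the decoding centre, went the other way. It was at 4.12 and 5.26 FPKM in PD WT and 35.7 and 26.7 in RS WT, a log2 change of 2.49 (SE 0.16, relative 2.71, adjusted p = 4.04e-08 by limma). Mrps36, the dehydrogenase subunit, was at 2.92 and 1.91 against 15.2 and 14.3 FPKM (log2 change 2.22, SE 0.16). Its PD WT values fit a transcript length of 355 bases or a multiple of it, and those of the other 3 tables one of 716. Part of any difference that uses its PD WT value, the PD genotype effect and the interaction included, may therefore lie in the gene model. How large that part could be depends on the multiple, which the values do not settle. Without Mrps36 the ribosomal members called higher in spermatids were 5.

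Mrpl32, a large-subunit protein trimmed by a mitochondrial protease before assembly, was at 7.82 and 13.3 FPKM in PD WT and 22.3 and 21.3 in RS WT (log2 change 1.02, adjusted p = 0.000412 by limma). Mrpl30 was at 15.1 and 23.2 against 34.8 and 29.3 (0.74, adjusted p = 0.00326). Mrpl18 (12.3 and 17.0 against 19.4 and 18.6 FPKM) and Mrpl22 (13.2 and 16.6 against 20.5 and 17.9) passed narrowly, with adjusted p of 0.0415 and 0.0417 in limma. Without the first PD WT library these became 0.198 and 0.181, and without the first RS WT library 0.142 and 0.219.

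**Figure D2:**
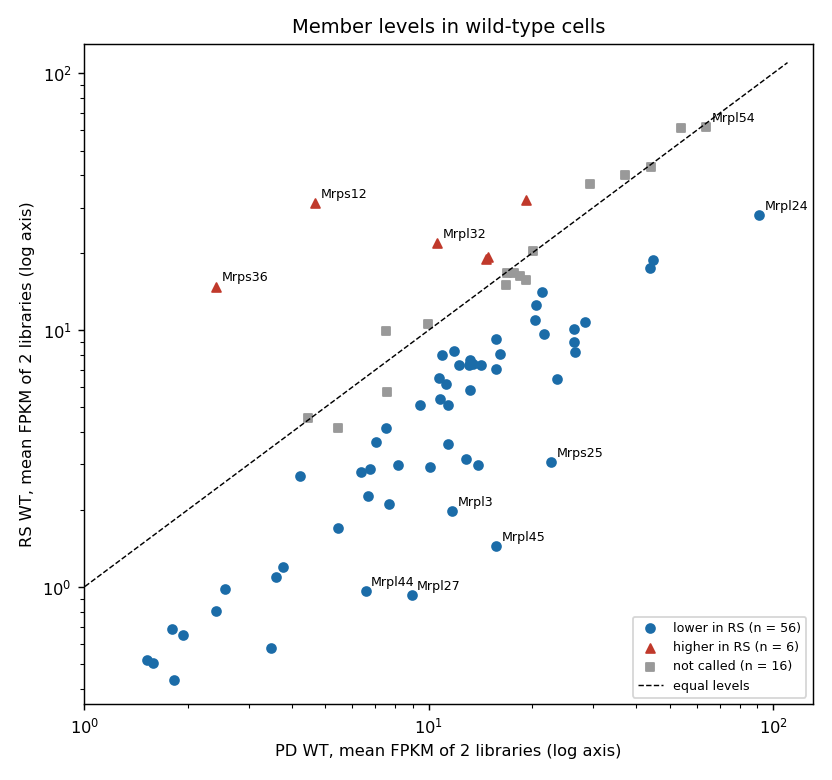
Mean FPKM of the 2 PD WT libraries (x axis, log scale) and the 2 RS WT libraries (y axis, log scale) for the 78 members, with the dashed line at equal levels. The 56 members called lower in RS lie below the line, and Mrps12 and Mrps36 are farthest above it.

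In Setd2KO spermatocytes, members were more often higher than lower. Of the 78, 30 rose and 3 fell in PD Setd2KO against PD WT, where 29.8% of all genes tested were called higher and 6.3% lower. The 2 groups did not overlap in 55 members that were higher and 6 that were lower, against 56.6% and 14.5% of genes. The median member changed by 0.35 and the median gene by 0.19, so the members' median lay 0.15 above that of all genes, and 58 of 78 members lay above it. Scaling changed the split: with upper-quartile scaling 22 members were called higher and 5 lower, and with quantile normalization 20 and 5. For all genes the calls were 3409 higher and 721 lower on the deposited scale and 1506 and 1787 after quantile normalization.

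The first PD WT library weighs on these counts. In it 68 of 78 members were lower than in the second, with a median log2 difference of −0.34 where the median gene differed by −0.13. Without it 17 members were called higher and 6 lower, and without the second PD WT library 49 and 2. Leaving out either PD Setd2KO library gave 16 and 12 members higher. RNA of spermatid genes also moved with the genotype. Over 517 genes far higher in RS WT than in PD WT, the RNA in PD libraries equalled 1.92% and 2.77% of the spermatid level in WT and 13.1% and 7.67% in Setd2KO. The genes were chosen by their WT values in these same libraries, which by itself holds the WT shares low. The Setd2KO shares were taken against RS Setd2KO levels, so the gap between genotypes is partly built in. With these shares of spermatid RNA subtracted, 17 members were called higher and 2 lower. Of 18 spermatid markers 13 rose and 2 fell, and of the 8 tested among 15 spermatogonial markers 6 rose and 0 fell by limma; their part in the members' counts was not tested.

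The 3 members that fell belong to both subunits. Mrps34, a mitochondria-specific small-subunit protein, was at 7.90 and 7.13 FPKM in PD WT and 3.27 and 2.90 in PD Setd2KO, a log2 change of −1.06 (SE 0.12, relative −1.25, adjusted p = 0.000249 by limma). Mrpl24, a large-subunit protein with a bacterial counterpart, was at 80.1 and 102 against 54.3 and 53.2 (log2 change −0.74, SE 0.17, adjusted p = 0.00656). Mrps16 was at 11.4 and 14.2 against 9.01 and 9.83 (−0.40, adjusted p = 0.0452). The Mrps16 call was lost when any library other than the first PD WT one was left out, with adjusted p from 0.055 to 0.194, whereas those of Mrps34 and Mrpl24 held without each library in turn.

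Mrps10, a small-subunit protein with a bacterial counterpart, was among the largest rises. It was at 8.15 and 5.15 FPKM in PD WT and 11.5 and 13.3 in PD Setd2KO (log2 change 0.84, SE 0.18, relative 0.64, adjusted p = 0.00491 by limma). Mrpl33, a small protein of the large subunit, was at 21.6 and 31.2 against 43.6 and 48.3 (0.80, adjusted p = 0.00418). Mrps12 was at 4.12 and 5.26 against 9.06 and 8.57 (0.79, adjusted p = 0.00333). In all 3 the groups did not overlap, which was a condition for naming them. Their order is not resolved: after quantile normalization Mrps10 was at 0.69 and Mrpl33 at 0.75.

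Mrpl58, a peptidyl-tRNA hydrolase that rescues stalled ribosomes and is also built into the large subunit, was at 2.48 and 2.34 FPKM in PD WT and 3.76 and 5.85 in PD Setd2KO (log2 change 0.74). Mrpl15 was at 3.75 and 4.69 against 7.17 and 7.70 (0.70). Mrpl50 was at 1.59 and 1.58 against 3.06 and 3.10 (0.66), the smallest spread within groups of this set. The adjusted p in limma was 0.00547, 0.00181 and 0.000495 for Mrpl58, Mrpl15 and Mrpl50. Under quantile normalization that of Mrpl58 was 0.0778.

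The other 4 of the 10 largest rises on the log2(FPKM + 1) scale were in Mrps28, Mrpl3, Mrps21 and Mrpl42. Mrps28 was at 15.1 and 20.4 FPKM in PD WT and 27.9 and 26.5 in PD Setd2KO (log2 change 0.60), and Mrpl3 at 10.8 and 12.6 against 17.7 and 18.5 (0.60). Mrps21 was at 11.4 and 14.9 against 19.9 and 20.1 (0.58), and Mrpl42 at 13.5 and 17.9 against 23.3 and 24.3 (0.58). Without the first PD Setd2KO library the Mrps28 adjusted p was 0.0648, and without the second that of Mrpl42 was 0.0664. The remaining 20 members called higher changed by 0.26 to 0.57. By class, 20 of 51 large-subunit and 10 of 26 small-subunit members rose.

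Of the 30 rises, 11 held without each library in turn: Mrpl3, Mrpl15, Mrpl33, Mrpl44, Mrpl50, Mrpl58, Mrps10, Mrps12, Mrps21, Mrps24 and Mrps35. Mrps24 rose by 0.56 and Mrps35, a mitochondria-specific small-subunit protein, by 0.55.

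In Setd2KO spermatids the members split. Of the 78, 13 rose and 15 fell in RS Setd2KO against RS WT, where 20.9% of all genes tested were called higher and 21.8% lower. Groups did not overlap in 34 higher and 20 lower members, against 40.4% and 37.7% of genes. The members' shares, 16.7% and 19.2%, lie near that background. Median changes were 0.08 for members and 0.02 for all genes. Upper-quartile scaling gave 25 higher and 15 lower, and quantile normalization 21 and 15. Without each library in turn the rises numbered 7 to 23 and the falls 9 to 15. Counts moved by over 1.5 times without the first or the second PD WT library (23 rises each), the first RS WT library (9 falls), the second RS WT library (8 rises) or the first RS Setd2KO library (7 rises).

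Mrpl24 and Mrps34 had the largest falls on the log2(FPKM + 1) scale. Mrpl24 was at 29.0 and 26.9 FPKM in RS WT against 7.95 and 5.89 in RS Setd2KO, a log2 change of −1.88 (SE 0.17, adjusted p = 1.27e-05 by limma). Mrps34 was at 4.58 and 3.75 against 0.691 and 0.557 FPKM (log2 change −1.66, SE 0.12, adjusted p = 3.77e-06), resting on 36 and 33 reads in the Setd2KO libraries. Mrps12 was at 35.7 and 26.7 against 14.5 and 13.7 (−1.08, SE 0.16, adjusted p = 0.000337). Both mutant libraries lay well below both wild-type libraries in each of these 3, where groups that do not overlap were a condition for naming. The order of the first pair depends on the scale, since after quantile normalization Mrps34 was at −1.85 and Mrpl24 at −1.69.

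Mrpl41, a mitochondria-specific large-subunit protein, was at 7.03 and 5.98 FPKM in RS WT against 2.71 and 2.81 in RS Setd2KO (log2 change −0.99). Mrps16 was at 3.54 and 2.75 against 1.40 and 1.2 (−0.84), and Mrpl34 at 2.53 and 3.08 against 1.28 and 1.17 (−0.77). Mrps28 was at 16.9 and 16.6 against 9.29 and 10.5 (−0.70), and Mrpl9 at 3.07 and 2.89 against 1.65 and 1.70 (−0.57). Together with Mrpl24, Mrps34 and Mrps12 these are the 8 falls that held without each library in turn.

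Mrps26, a mitochondria-specific small-subunit protein, was at 8.43 and 6.26 FPKM in RS WT against 4.00 and 3.98 in RS Setd2KO (−0.73). Mrpl21 was at 3.74 and 3.57 against 1.72 and 2.38 (−0.62). Their adjusted p in limma was 0.00841 and 0.00523. Without the first RS WT library that of Mrps26 was 0.0986, and without the first RS Setd2KO library that of Mrpl21 was 0.0642. Mrps36, Mrpl22, Mrpl38, Mrpl4 and Mrpl49 fell by 0.51 to 0.57 on the log2 scale.

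On the rising side, Mrpl33 was at 9.22 and 8.78 FPKM in RS WT against 16.7 and 16.3 in RS Setd2KO, a log2 change of 0.80 (SE 0.17, adjusted p = 0.00274 by limma). Mrps18c was at 6.24 and 6.62 against 11.8 and 11.3 (0.76, adjusted p = 0.00183). Mrpl36 was at 5.48 and 5.32 against 10.1 and 9.07 (0.72). Mrps30 was at 7.54 and 7.82 against 13.2 and 13.4 (0.72). Groups that do not overlap were a condition for naming all 4, so their separation is no added support.

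Mrps33 was at 1.94 and 1.46 FPKM in RS WT against 3.15 and 3.45 in RS Setd2KO (log2 change 0.68). Mrpl44 was at 0.976 and 0.953 against 2.07 and 2.19 (0.67), and Mrps6, a small-subunit protein with a bacterial counterpart, at 2.67 and 3.08 against 5.39 and 4.47 (0.61). With Mrpl33, Mrps18c, Mrpl36 and Mrps30 these are the 7 rises that held without each library. Mrpl42 was at 9.53 and 8.95 against 15.1 and 13.5 (0.58), and Mrpl13 at 9.81 and 10.3 against 15.3 and 14.6 (0.52). Mrpl39 was at 45.1 and 41.1 against 59.9 and 60.3 (0.47, adjusted p = 0.0381).

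The Mrpl39 call was lost without either RS WT library (adjusted p of 0.0925 and 0.176), either RS Setd2KO library (0.143 and 0.126) or either PD Setd2KO library (0.0636 and 0.064). Mrpl42 was lost without the second RS WT (0.0626) or the first RS Setd2KO library (0.0778), and Mrpl13 without the first RS WT (0.0854) or the first RS Setd2KO library (0.0829). Mrpl3, Mrpl19 and Mrpl37 rose by 0.26 to 0.42.

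RNA of somatic cells moved with the genotype in spermatids. All 6 tested of 10 myoid and stromal markers rose, and the 10 together summed to 3.04 and 5.85 FPKM in RS WT against 25.1 and 24.4 in RS Setd2KO, with 4.59 to 8.62 in the PD libraries. The 3 tested of 11 Sertoli markers also rose, with sums of 6.21 and 8.08 against 16.8 and 14.4 FPKM. Leydig markers had 1 of 3 called higher, macrophage markers 1 of 2 called lower, and the single tested marker of erythrocytes and endothelium was not called. None of these markers was at 0 in every library. Their part in the members' changes was not tested.

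**Figure D3:**
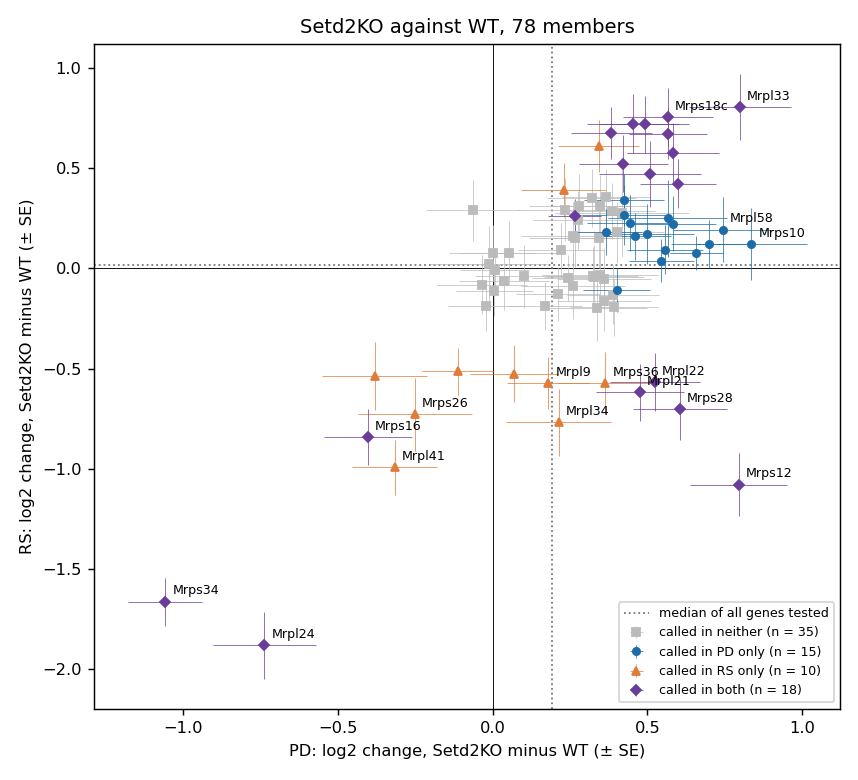
Log2 change with SE of the 78 members in PD (x axis) and RS (y axis), Setd2KO minus WT, with dotted lines at the median of all genes tested. Mrpl24 and Mrps34 lie at the lower left, Mrps12, Mrps28, Mrpl21 and Mrpl22 at the lower right, and most members between 0 and 0.6 in PD.

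The spermatocyte and spermatid comparisons subtract different libraries, but limma estimated the spread for both comparisons in the same fit over all libraries. Calls in the spermatocyte and spermatid comparisons are therefore not independent of each other. Of the 78 members 11 were called higher in both, against 8.31% of all genes tested: Mrpl3, Mrpl13, Mrpl19, Mrpl33, Mrpl36, Mrpl39, Mrpl42, Mrpl44, Mrps18c, Mrps30 and Mrps33. Another 3 were called lower in both, against 3.15% of genes: Mrpl24, Mrps16 and Mrps34. Mrps12, Mrps28, Mrpl21 and Mrpl22 were higher in PD and lower in RS, against 4.86% of genes, and 0 members were lower in PD and higher in RS, against 0.445%. In 35 members neither comparison was called.

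The difference between the genotype effects, RS minus PD, was tested as an interaction. By limma it was called negative in 17 members and positive in 0 (0 also at an unadjusted p under 0.05), with 27.3% of all genes negative and 7.76% positive. At upper-quartile scaling the counts were 13 and 2, and after quantile normalization 10 and 3, and the median of all genes was −0.02 and 0.05 in place of −0.16. Mrps12 had the largest value at −1.88 (SE 0.22, relative −1.72, adjusted p = 0.000319 by limma), followed by Mrps28 at −1.31 (adjusted p = 0.00129). Mrpl24 was at −1.14, Mrpl21 at −1.09 and Mrpl22 at −1.09, with adjusted p of 0.00381, 0.00217 and 0.00239. Mrpl22 was at 13.2 and 16.6 FPKM in WT against 20.5 and 23.1 in Setd2KO spermatocytes, then at 20.5 and 17.9 against 12.3 and 13.0 in spermatids. Mrpl21 was at 6.19 and 7.91 against 10.2 and 10.0 in PD. All 5 were called without each library in turn, while the count of 17 became 28 without the second PD WT library, 10 without the first RS WT library, and 11 without the second PD Setd2KO or the first RS Setd2KO library.

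The same value reads as a difference between genotypes in the step from spermatocyte to spermatid. For Mrps12 that step was smaller in the mutant, from 9.06 and 8.57 to 14.5 and 13.7 FPKM, than in the wild type, from 4.12 and 5.26 to 35.7 and 26.7. For Mrpl24 it was a steeper fall in the mutant, from 54.3 and 53.2 to 7.95 and 5.89 FPKM, than in the wild type, from 80.1 and 102 to 29.0 and 26.9.

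**Figure D4:**
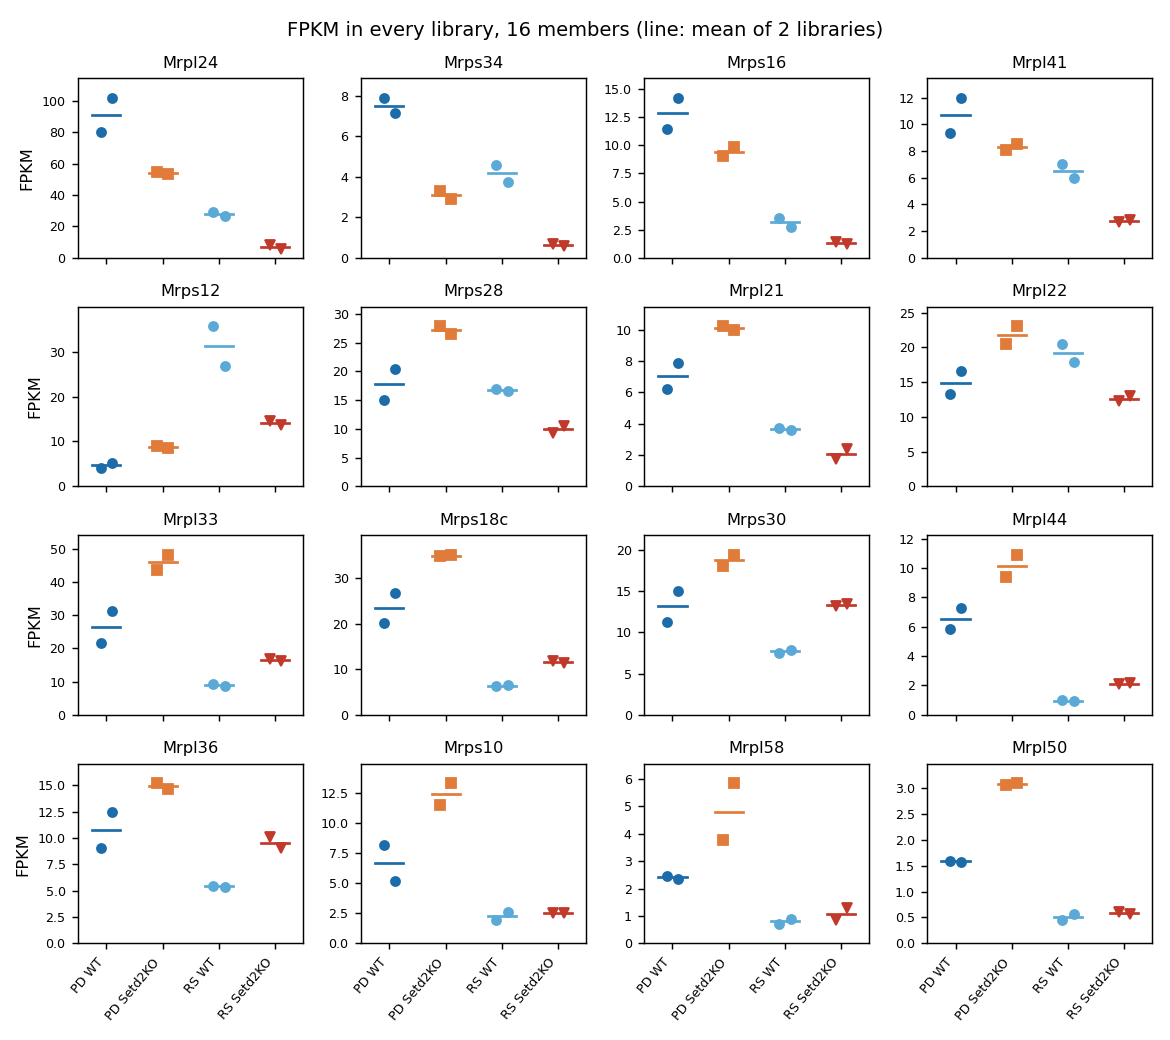
FPKM in each of the 8 libraries for 16 members, 1 panel per gene with its own axis from 0; points are libraries and lines the mean of 2. In the top row Mrpl24, Mrps34 and Mrps16 were called lower in Setd2KO in both cell types and Mrpl41 in RS, the second row is higher in PD Setd2KO and lower in RS Setd2KO, and the last rows hold members that rose.

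Of the 3 paralogs of the Mrps18 family 1 was called in the genotype comparisons. Mrps18c rose in both cell types, as given above for RS, and in PD was at 20.3 and 26.9 FPKM in WT against 34.8 and 35.2 in Setd2KO (log2 change 0.57, adjusted p = 0.012 by limma). Mrps18b was at 17.7 and 22.3 FPKM in WT against 18.7 and 20.1 in Setd2KO spermatocytes, and at 19.5 and 21.2 against 18.0 and 20.5 in spermatids. Mrps18a was at 18.6 and 18.1, 21.8 and 26.0, 14.1 and 18.5, and 15.5 and 15.6 FPKM in the same order. Neither was called in any comparison, although the PD groups of Mrps18a did not overlap (log2 change 0.36, SE 0.15), and reads that paralogs share, if any, would affect all 3. The contrast between the paralogs was not tested.

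Members called lower in spermatids were shorter genes than those called higher, and so were genes in general. The median genomic interval was 4122 bases for the 15 lower, 9129 for the 13 higher and 7227 for the 50 not called. Over all genes tested it was 16782 for those called lower, 25594 for those called higher and 20544 for those not called. Over the 78 members Spearman's rho between interval length and the RS change was 0.40, and 0.098 over all 11452 genes tested. In PD it was 0.32 over members and 0.050 over all genes. These are correlations across genes of the same libraries, which are not independent replicates, and they are given as a description.

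H3K36me3 covered most members in the wild type and none in the mutant. In the PD WT peak list 73 of 78 members had at least 1 peak base, against 88.1% of autosomal genes of 1 FPKM or more, and in RS WT 67 of 78, against 75.4%. Peaks covered at least 50% of the interval in 62 members in each list (69% and 57.3% of those autosomal genes). The median member was 80.6% covered in PD WT, where the median of those autosomal genes was 81.3%, and 83.9% in RS WT, against 71.1%. In PD Setd2KO and in RS Setd2KO 0 of 78 had a peak, where 1.55% and 5.41% of expressed autosomal genes had one. With 1 list per group these are counts with no replicate check, and a list shows where the authors' caller passed its threshold, not the amount of the mark.

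Along the gene the cover rose over the first bins and then changed little. With each interval cut into 10 bins, the first bin of members was 20.3% covered on average in PD WT and the last 83.4%, and in RS WT 23.2% and 77.6%, with the fourth bin already at 75.2% and 76.8%. Autosomal genes of 1 FPKM or more went from 42.0% to 71.9% in PD WT and from 41.5% to 58.5% in RS WT. Members are short, with a median interval of 7145.5 bases against 20668 for those genes in PD, and the part of length in the difference was not tested.

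**Figure D5:**
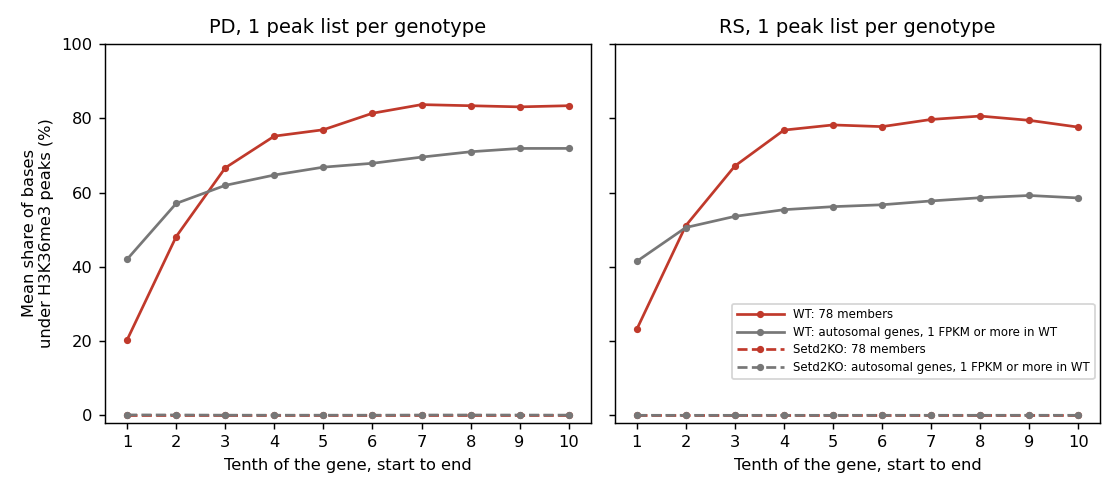
Mean share of bases under H3K36me3 peaks (y axis, percent) in each of 10 bins of the gene from start to end (x axis) in PD (left) and RS (right), for the 78 members and for autosomal genes of 1 FPKM or more, with WT as full and Setd2KO as broken lines. The member line starts at 20.3% in PD WT and 23.2% in RS WT and is at 75.2% and 76.8% by the fourth bin, and the Setd2KO lines lie at 0 for members.

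Mrpl24 (mm9 chr3:87723466-87727355, plus strand) lay under a PD WT peak at chr3:87723516-87733537 and an RS WT peak at chr3:87724273-87732958, which covered 98.7% and 79.3% of it. Mrps34 (chr17:25032065-25033218, plus strand) was 61.4% covered by a PD WT peak of 41009 bases and had no peak in RS WT. Mrps12 (chr7:29524660-29526800, minus strand) was 17.3% and 27.6% covered. Mrpl33 (chr5:31916324-31925017, plus strand) was 94.3% and 92.2% covered. Of these 4, all thus had at least 1 peak base in PD WT, and Mrpl24, Mrps12 and Mrpl33 in RS WT. The Mrps12 peaks, chr7:29520815-29525030 in PD WT and chr7:29523121-29525249 in RS WT, reached only the 3′ end of the gene.

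The 5 members with no peak in either wild-type list were Mrpl14, Mrpl23, Mrpl58, Mrps24 and Mrps36. Mrpl23 was at 2.22 and 2.89 FPKM in WT against 3.55 and 2.95 in Setd2KO spermatocytes, and at 1.09 and 0.879 against 1.69 and 0.833 in spermatids, and was called in neither genotype comparison. Mrpl58 was at 0.722 and 0.884 in RS WT against 0.845 and 1.30 in RS Setd2KO. Of these 5, Mrpl58 and Mrps24 rose in PD and Mrps36, at 15.2 and 14.3 against 9.77 and 9.39 FPKM, fell in RS. A further 6 members, Mrpl19, Mrpl28, Mrpl36, Mrps7, Mrps26 and Mrps34, lacked a peak in RS WT alone. In PD, 31 of the 73 members with a peak were called in the genotype comparison and 2 of the 5 without, and in RS 23 of 67 and 5 of 11. Median changes were 0.34 with and 0.40 without a peak in PD, and 0.08 and 0.09 in RS. Members without a peak had lower levels, with a median of 2.41 FPKM against 13.1 in PD WT.

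Many members share their start region with another gene. In 24 of 78 (30.8%) a gene on the other strand starts within 1000 bases, against 12.7% of tested autosomal genes. Mrpl46 and Mrps11, both members, start 42 bases apart, and neither was called in either genotype comparison. In PD 12 members with a tested partner were called, and the partner had the same call in 4 (Mrpl32, Mrps12, Mrps18c and Mrps34), the opposite call in 0 and none in 8. In RS 7 were called, and the partner had the same call in 3 (Mrpl41, Mrps12 and Mrps34), the opposite in 1 (Mrpl13, whose partner Mtbp fell) and none in 3. Among all genes tested 29.8% were called higher and 6.3% lower in PD, and 20.9% and 21.8% in RS. Whether partners share a call more often than other genes was not tested.

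The partners of Mrps34 and Mrps12 are given here because they moved with them, chosen after their values were seen. Eme2, a subunit of a structure-specific endonuclease beside Mrps34, was at 10.2 and 10.6 FPKM in PD WT and 5.19 and 5.97 in PD Setd2KO, and at 2.95 and 2.65 against 1.30 and 1.36 in RS. Its log2 changes were −0.79 and −0.70. Sars2, the mitochondrial seryl-tRNA synthetase beside Mrps12, was at 0.850 and 0.982 against 1.45 and 1.46 in PD, and 4.70 and 4.81 against 2.34 and 3.19 in RS. It rose by 0.36 in PD and fell by 0.62 in RS, the same directions as Mrps12.

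Another 7 members overlap a gene in the tables: Mrpl19 with Gcfc2, Mrpl24 with Rrnad1, Mrpl41 with Dph7, Mrpl49 with Syvn1, Mrpl53 with Ccdc142, Mrps6 with Slc5a3 and Mrps25 with Nr2c2. The strand setting of the counting is not given in the sources used here, so their values are uncertain to the extent that reads were shared. Rrnad1 fell with Mrpl24, from 8.03 and 7.40 to 3.69 and 3.78 FPKM in RS (log2 change −0.88), less than Mrpl24 itself.

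Other genes of mitochondrial translation were read from lists compiled with earlier results of these data known. Their counts stand beside 29.8% of all genes tested called higher and 6.3% lower in PD, and 20.9% and 21.8% in RS. Whether any list differs from these shares was not tested. Mitoribosome proteins with other symbols had 5 genes tested: in PD 0 changed by limma (0 also at an unadjusted p under 0.05), and in RS 1 rose, Ptcd3 (6.74 and 6.06 FPKM in WT, 8.97 and 8.38 in Setd2KO, log2 change 0.39). Of 21 assembly and rRNA modification genes 7 rose and 0 fell in PD by limma (0 fell also at an unadjusted p under 0.05), led by Fastkd2 (3.92 and 5.19 against 7.50 and 7.56 FPKM) and Rbfa (3.01 and 4.53 against 5.43 and 6.91). In RS 2 rose and 2 fell, led by the rRNA methyltransferase gene Mrm3, listed as Rnmtl1 (2.20 and 1.60 against 0.450 and 0.437 FPKM, log2 change −1.0), and Trub2 (1.64 and 1.16 against 0.736 and 0.908).

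Among 13 translation factors 6 rose and 1 fell in PD, and 3 rose and 2 fell in RS. Tsfm, an elongation factor, fell in PD (3.41 and 4.72 against 2.22 and 2.34 FPKM), and Lrpprc, which binds mitochondrial mRNAs, rose (10.8 and 11.9 against 15.9 and 17.2). Mrrf, the ribosome recycling factor, fell in RS from 11.2 and 11.2 to 4.98 and 5.28 FPKM (log2 change −0.99), and Gfm2, which works with it, rose from 2.22 and 2.34 to 3.79 and 3.63. Of 18 mitochondrial aminoacyl-tRNA synthetases 6 rose and 1 fell in PD, with Rars2 (12.9 and 16.4 against 21.0 and 21.6 FPKM) among those that rose. In RS 0 rose by limma (2 at an unadjusted p under 0.05) and 8 fell, with Mars2 (3.88 and 3.66 against 2.08 and 2.01) and Sars2 leading.

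Of 12 genes for transcription and maintenance of mitochondrial DNA and their nuclear regulators 4 rose and 0 fell in PD by limma (1 at an unadjusted p under 0.05), led by Tefm (2.17 and 3.5 against 4.78 and 4.99 FPKM) and Yy1 (13.7 and 14.9 against 19.5 and 21.2). In RS 2 rose and 4 fell. Tfam, which packages mitochondrial DNA, fell from 9.60 and 8.38 to 3.04 and 2.69 FPKM (log2 change −1.37, adjusted p = 8.99e-06 by limma), and Gabpb1, a subunit of GABP, from 6.12 and 5.96 to 2.15 and 2.50 (−1.08). Gabpa, the DNA-binding subunit of GABP, rose from 2.48 and 2.48 to 3.60 and 3.39 FPKM (log2 change 0.37, adjusted p = 0.0156 by limma). Of the 18 members with an ETS motif in the promoter window, 2 rose and 4 fell in RS, and of the 51 others with a promoter 9 rose and 7 fell. Over all genes tested 20.9% were called higher and 21.8% lower in RS. A link between the GABP genes and these counts was not tested.

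Cytosolic ribosomal proteins and the subunits of oxidative phosphorylation were set beside the members. In PD Setd2KO 12 of 82 cytosolic ribosomal protein genes rose and 0 fell by limma (0 fell also at an unadjusted p under 0.05), and 21 of 82 oxidative phosphorylation genes rose and 2 fell. Medians were 0.33 and 0.31 against 0.35 for the members. In RS Setd2KO the counts were 8 higher and 1 lower, and 11 higher and 5 lower. The shares called higher were 14.6% and 25.6% in PD and 9.76% and 13.4% in RS. Both lay below those of all genes tested, 29.8% in PD and 20.9% in RS. Of all genes 6.3% were called lower in PD and 21.8% in RS. From PD to RS in the wild type the medians were −0.37 and −0.41 against −0.78 for the members. Whether these gene groups differ was not tested.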

How the data were processed

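Poly(A) RNA of sorted mouse germ cells was sequenced in 8 libraries, and H3K36me3 was profiled with 1 immunoprecipitation per group. The authors deposited FPKM per gene and library, made with TopHat2, Cufflinks and Cuffdiff on mm9, per the submitters' processing notes. The authors deposited each peak list with a score of at least 50 per peak, with Bowtie and bedtools named in the submitters' processing notes and MACS in the peak names. The labels' protocols name a chromatin spike-in, whose use in the lists is not given in the sources used here.

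Whole reads behind the FPKM of each member were recovered from the steps between low values, within 0.003 reads, to state depth. Changes were fitted in limma 3.58.1 (R 4.3.3) with an intensity trend on log2(FPKM + 1), in 1 model of 4 groups of 2 libraries with 4 residual degrees of freedom, and p-values were adjusted over all 11452 genes by the Benjamini-Hochberg method. The fit, the read recovery and the cover were tested on simulated data. Cover is the share of a gene's interval under peaks. Members named with every value were those called with groups that did not overlap, up to 10 per direction (5 for the interaction), the 5 highest and 5 lowest, those with no wild-type peak, and the Mrps18 paralogs. The members, the gene lists (mitochondrial translation lists, cytosolic ribosomal proteins, oxidative phosphorylation, and markers of spermatocytes, round spermatids, spermatogonia, Sertoli, Leydig, myoid and stromal cells, macrophages, erythrocytes and endothelium) and the tests were chosen with earlier results of these data known. Symbols were matched directly or through RefSeq synonyms, promoters by symbol. Alternatives were another pseudocount, no filter, upper-quartile and quantile scaling, no trend, a replicate block, 1 cell type alone, subtraction of the other cell type's RNA, each library left out, and stricter peak rules. The 2 input libraries have no file used here.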

Additional observations from a re-analysis of the deposited data

Results flagged for a closer look

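The Setd2KO effect differed between spermatids and spermatocytes in 17 members by the interaction test in limma, all with a lower value in spermatids. These are 21.8% of members, below the 27.3% of all genes tested that were called in that direction. The direction depends on the scale: over all genes 3126 were lower and 889 higher, but 2074 and 2327 after quantile normalization. The 4 with opposite calls in the 2 cell types were Mrps12 (log2 difference −1.88), Mrps28 (−1.31), Mrpl21 (−1.09) and Mrpl22 (−1.09). Mrpl24 (−1.14) and Mrps34 (−0.61) fell in both and further in spermatids. Mrpl34 (−0.98), Mrps36 (−0.94), Mrpl9 (−0.75), Mrpl41 (−0.68) and Mrpl4 (−0.59) were called lower in spermatids and not called in spermatocytes. The Mrps36 value uses a PD WT level from another transcript length (355 bases or a multiple of it, against 716). Mrps10 (−0.71), Mrpl50 (−0.58), Mrpl15 (−0.58), Mrpl27 (−0.51) and Mrps35 (−0.51) were called higher in spermatocytes and not called in spermatids. Mrps17 (−0.59) was called in neither. Of the 17, 9 held without each library in turn: Mrps12, Mrps28, Mrpl24, Mrpl21, Mrpl22, Mrpl34, Mrps36, Mrpl9 and Mrpl50.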

How the results depend on the processing

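Upper-quartile scaling, quantile normalization and the fits that change the filter, the trend or the libraries moved the counts of called members. Of 843 refits of the named members, 800 kept their call, 43 lost it and none changed sign. Outside the interaction, the groups of the named members did not overlap, so leaving out a library could not reverse their sign. Leaving out a library of a group outside the comparison left the estimate itself unchanged. The unchanged signs are thus no check on direction. In spermatocytes the 30 rises became 20 after quantile normalization, 17 in the PD libraries alone and 17 with spermatid RNA subtracted, and the 3 falls became 5 with either scaling. In spermatids the 13 rises became 25 with upper-quartile scaling and 21 after quantile normalization. For the interaction the 17 negative calls became 10 after quantile normalization, and the 0 positive calls became 2 and 3 with the scalings. Without each library in turn the counts ran from 12 to 49 rises and 2 to 6 falls in PD, 7 to 23 and 9 to 15 in RS, 4 to 11 and 55 to 61 for RS against PD in WT, and 0 to 3 positive and 10 to 28 negative for the interaction; the cause was not tested.

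Libraries of 1 number did not deviate together (correlations from −0.31 to 0.07), so the numbers were not taken as pairs. With the replicate block the counts were 29 rises and 2 falls in PD, 13 and 15 in RS, 6 and 57 for RS against PD in WT, and 0 and 15 for the interaction. With only peaks that score at least 60, 73 and 67 members still had cover in PD WT and RS WT, and 62 were at least 50% covered in each. In 54 of 624 values a member rests on fewer than 100 reads.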
